A study of Mus musculus with 8 samples.

Results

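The miR-181 family was represented on the array by 4 mature miRNAs from the 5′ arm of their hairpins, mmu-miR-181a-5p, mmu-miR-181b-5p, mmu-miR-181c-5p and mmu-miR-181d-5p. They were taken by their names on the array and are 4 of the 611 mouse miRNAs that it measured. miRNAs were measured in C3H10T1/2 cells, a mouse mesenchymal line of embryonic origin that can respond to hedgehog signals. In the WT group the cells spent 48 h with wild type IhhN, the signaling part of Indian hedgehog (IHH), at 750 nM. Cells of the MT group received E95K mutant IhhN at the same dose for the same time. Cells of the control group were not induced with protein, although their labels also carry the dose. All 3 groups shared the cell line, serum-containing medium and incubation time. The proteins were recombinant human proteins made in bacteria. They were added to a mouse line, so the mutation was in the added protein and not in a gene of the cells. The cells were of a mesenchymal line and were not chondrocytes. Each group had 2 RNA samples (n = 2). Those of the WT group were each run on 2 arrays and the others on 1, so 8 arrays were used, all on 1 slide. The labels do not say whether the samples of a group came from separate cultures, so the p-values measure the spread between these samples only.

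A miRNA guides a silencing complex to mRNAs that pair with it, mainly through its seed (bases 2 to 8 from the 5′ end), and lowers their output. The miR-181 family is conserved in vertebrates, its members share a seed and can therefore reach overlapping sets of mRNAs, and it is best known from lymphocyte development, where miR-181a tunes T cell receptor signaling. Members have also been studied in muscle and in bone-forming cells.

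The mature sequences are shown because they set which members an array can tell apart. They are given 5′ to 3′ as RefSeq lists them for GRCm38.p6, and capitals mark the seed.
mmu-miR-181a-5p: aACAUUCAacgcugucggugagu
mmu-miR-181c-5p: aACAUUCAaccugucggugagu
mmu-miR-181b-5p: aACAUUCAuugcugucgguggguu
mmu-miR-181d-5p: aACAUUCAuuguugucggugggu

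All 4 members carried the same seed. Of 1679 mature mouse entries in the RefSeq table, 4 had this seed, and these were the 4 members. Outside the seed they formed 2 closely related pairs. miR-181c-5p was 1 base shorter than miR-181a-5p and had the same first 10 and last 12 bases, an edit distance of 1. miR-181b-5p and miR-181d-5p differed by C12U, counted from the 5′ end of miR-181b-5p, and by the last base that miR-181d-5p lacks, an edit distance of 2. Between the pairs the distance was 4 or 5. miR-181a-5p and miR-181d-5p, which have equal lengths, differed by A9U, C10U, C12U and A21G. The probe sequences were not used here, and how much a probe for 1 member also bound another was not tested.

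The hairpins lay in 3 clusters of 2, with positions given here for GRCm38.p6. On chromosome 1 the mature miR-181a-5p was at chr1:137966468-137966490 and miR-181b-5p at chr1:137966650-137966673, both on the plus strand, with 97 bases between the hairpins. This cluster overlapped no other gene of the table, and the nearest protein-coding gene was Ptprc, which encodes the leukocyte phosphatase CD45. The copies on chromosome 2, at chr2:38852741-38852763 for miR-181a-5p and chr2:38853845-38853868 for miR-181b-5p, also on the plus strand, were 1019 bases apart as hairpins and lay within Nr6a1, which encodes an orphan nuclear receptor, and its antisense lncRNA gene Nr6a1os. miR-181d-5p at chr8:84178759-84178781 and miR-181c-5p at chr8:84178924-84178945 were on the minus strand of chromosome 8, with 85 bases between the hairpins and Nanos3, a germ cell gene, as the nearest protein-coding gene. Because the mature sequences from both loci are identical for miR-181a-5p, and likewise for miR-181b-5p, the array measured the sum of each over its loci. The opposite arms differ between the loci of miR-181a, so they are shown as the sequences that could separate them, again with bases 2 to 8 in capitals.
mmu-miR-181a-1-3p: aCCAUCGAccguugauuguacc
mmu-miR-181a-2-3p: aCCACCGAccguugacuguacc
These were the other 2 miR-181 forms on the array, and neither was detected on any of the 8 arrays. The loci could therefore not be separated in these cells.

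Detection divided the family along its clusters. Detection of a probe required that more than 50% of its spots on that array, outliers left out, carried the mark well above background. Each member had 2 probes with 10 spots each, hence 80 spots of a probe over the 8 arrays. miR-181a-5p and miR-181b-5p, the members with copies on chromosomes 1 and 2, were detected on all 8 arrays, with 79 of 80 spots well above background at the brightest probe of each. miR-181c-5p and miR-181d-5p, the pair on chromosome 8, were detected on none by this rule, with 1 and 3 of 80 spots. Among all mouse miRNAs 103 were detected on all 8 arrays and 449 on none. Feature Extraction, the scanner software, made the same call for miR-181c-5p and called miR-181d-5p detected on 1 array, that of control replicate 1.

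The negative control spots had means of 3.90 to 4.75 signal units and SDs of 2.71 to 6.94. Some background-subtracted signals of the undetected members were near these means and others were not. On the array of control replicate 1, where that mean was 4.24 and the SD 2.71, miR-181c-5p reached 10.69 and miR-181d-5p 13.8. miR-181c-5p gave 10.69 and 6.37 in the control group, 8.31, 4.83, 7.13 and 5.33 on the WT arrays and 4.53 and 4.62 in the MT group. miR-181d-5p gave 13.8 and 9.80 in the control group, 9.49, 7.71, 7.62 and 5.81 on the WT arrays and 5.23 and 9.04 in the MT group. For both members the highest signal was that of control replicate 1, the array with the largest 75th percentile. All these values were below the dimmest detected mouse probe of their array, and after scaling both members lay at the floor on every array. They have only an upper bound in all 3 groups, were not tested, and no fold is given for them. Not being well above background does not show that the RNAs were absent.

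**Figure D1:**
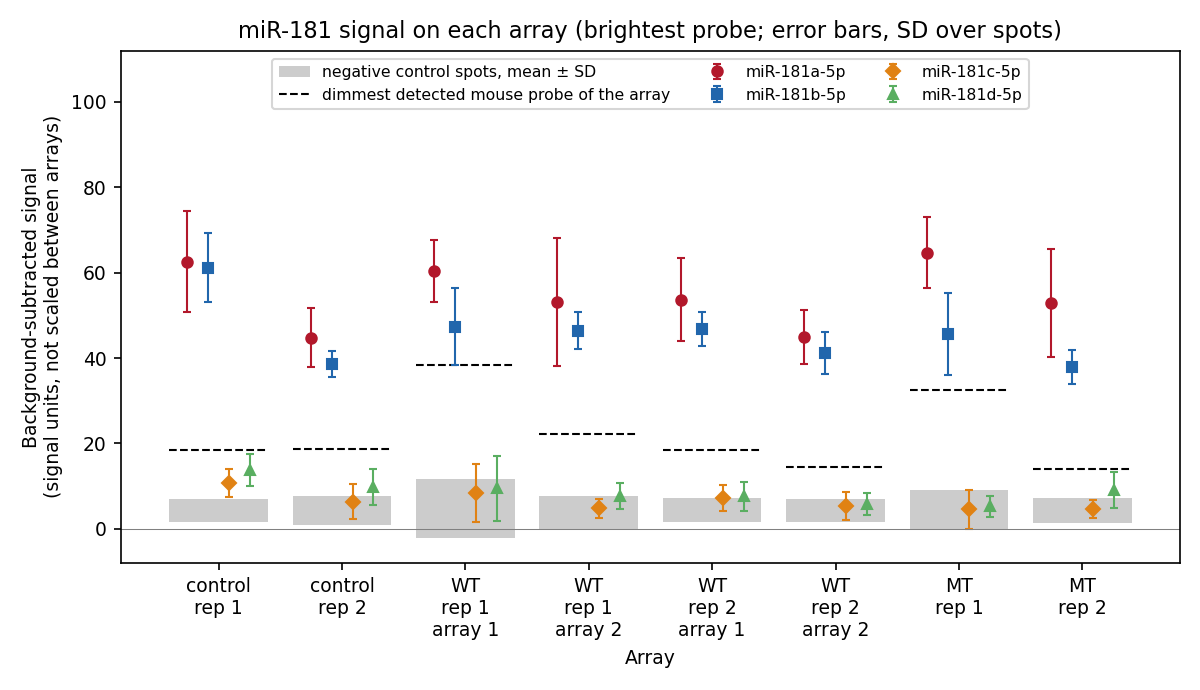
Background-subtracted signal (signal units, not scaled between arrays) of the brightest probe of each miR-181 member on the 8 arrays, with the SD over its spots, beside the mean ± SD of the negative control spots (grey) and the dimmest detected mouse probe of each array (dashed). miR-181a-5p and miR-181b-5p lie above the dashed line on all 8 arrays, while miR-181c-5p and miR-181d-5p lie below it on all 8.

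Before any scaling the groups overlapped for both detected members. miR-181a-5p gave 62.6 and 44.7 signal units in the control group, 60.4, 53.2, 53.7 and 45.0 on the WT arrays and 64.7 and 52.9 in the MT group. miR-181b-5p gave 61.2 and 38.6 in the control group, 47.3, 46.4, 46.8 and 41.1 on the WT arrays and 45.6 and 37.9 in the MT group. The arrays themselves differed in brightness over the same range of samples. The 75th percentile of the 174 mouse probes detected on all arrays was 606 to 785 in the control group, 442 to 565 on the WT arrays and 432 to 442 in the MT group. Differences between the groups are therefore given on the log2 scale after each array was divided by that percentile, and they are changes relative to these probes, not absolute amounts.

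Other properties of the arrays bear on these values. Between 104 and 150 mouse miRNAs were detected on an array, and no spot was saturated. The negative control spots were widest on the first array of WT replicate 1 and on the array of MT replicate 1, with SDs of 6.94 and 4.56 against 2.71 to 3.87 on the other 6. The WT arrays filled row 1 of the slide with replicate 1 on the left side and replicate 2 on the right, whereas both MT arrays lay on the left and both control arrays on the right of row 2. For the comparison of MT with control, side of the slide and group cannot be told apart. For WT against control and WT against MT, row of the slide and group cannot be told apart. Of miRNAs typical of mesenchymal cells, 11 of 13 on the array were detected on at least 1 array. None of the 9 typical of skeletal muscle, the 11 of epithelium or the 2 of endothelium were. Of miRNAs typical of blood cells, 2 of 9 were detected, miR-146a-5p and miR-155-5p, on 5 arrays each, and of neural miRNAs 1 of 6, miR-128-3p, also on 5. miR-142, the most lineage-restricted of the blood cell list, was detected on no array.

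miR-181a-5p was lowest in the control group and highest in the MT group. Its scaled level was 5.26 and 5.15 in control replicates 1 and 2 (mean 5.21 ± 0.08 SD). In the WT group it was 5.82 and 5.56 (5.69 ± 0.18), and in the MT group 6.14 and 5.88 (6.01 ± 0.18). The RNA came from whole cultures, in which fewer cells with a miRNA and less of it per cell cannot be told apart. No group overlapped another, and the order of the means was control, WT, MT. The neighbours WT and MT stood close, since the lower MT sample exceeded the higher WT sample by less than the SD of either group.

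miR-181b-5p was also lowest in the control group, but its WT and MT samples were interleaved. It measured 5.23 and 4.94 in the control group (mean 5.08 ± 0.21 SD), 5.55 and 5.40 in the WT group (5.47 ± 0.11) and 5.63 and 5.40 in the MT group (5.52 ± 0.16). Both WT and both MT samples exceeded both control samples. The 2 arrays of a WT RNA sample differed by 0.13 and 0.10 for miR-181a-5p and by 0.03 and 0.16 for miR-181b-5p on the log2 scale. The 2 RNA samples of a group differed by 0.11 to 0.26 for miR-181a-5p and by 0.15 to 0.29 for miR-181b-5p. The pooled SD within groups was 0.16 for each member, against a median of 0.18 over the 142 miRNAs tested.

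**Figure D2:**
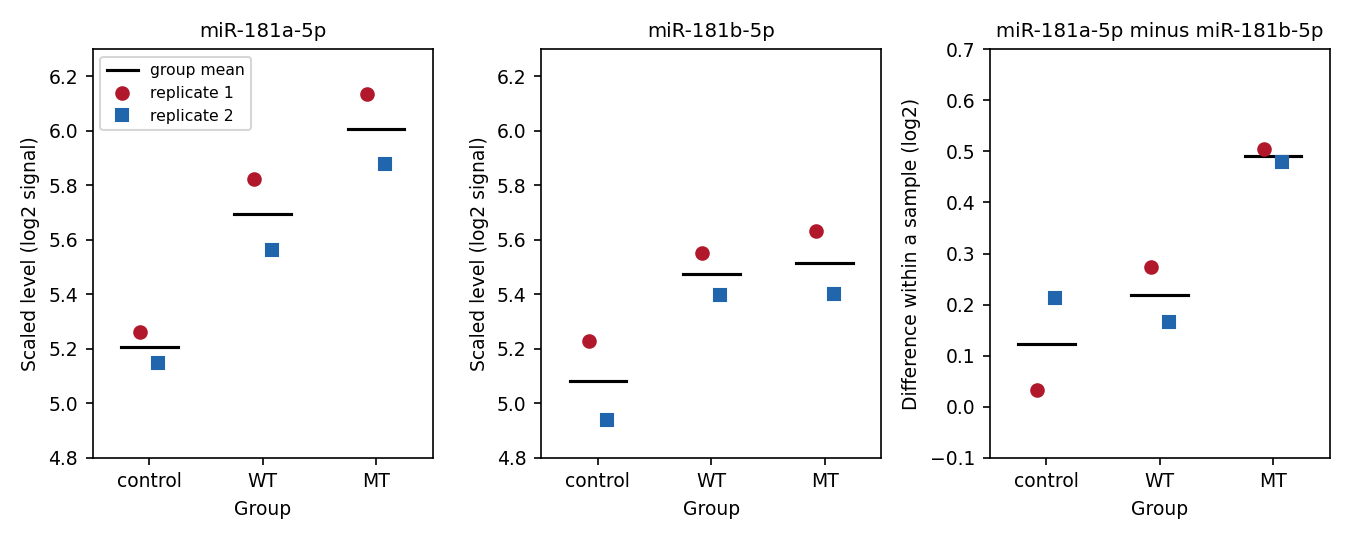
Scaled level (log2 signal) of miR-181a-5p and miR-181b-5p in each RNA sample of the control, WT and MT groups, and the difference between the 2 members within each sample, with bars at the group means (n = 2 per group). With this scaling both control samples lie below all WT and MT samples for both members, and the 2 MT samples have the highest differences, 0.50 and 0.48; without scaling the levels of the groups overlapped.

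The comparison of WT with control asks how cells exposed to wild type IhhN differed from uninduced cells. miR-181a-5p was higher by 0.49 on the log2 scale (SE 0.17, 95% interval 0.08 to 0.90), a ratio of 1.40. The fit with limma gave an adjusted p = 0.139 (Benjamini-Hochberg over the 142 miRNAs tested). miR-181b-5p was higher by 0.39 (SE 0.18, interval -0.03 to 0.81), a ratio of 1.31, with an adjusted p = 0.190 by limma. Of the 4 members 0 passed the adjusted threshold of 0.05, as did 0% of the 142 miRNAs, and 1, miR-181a-5p, was higher at an unadjusted p under 0.05, against 17.6% of all tested. Both tested members were higher without overlap of the samples, as were 39.4% of the 142. The difference ranked 19th for miR-181a-5p and 34th for miR-181b-5p from the most raised, where the median of all tested was 0.11.

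The comparison of MT with control asks the same for the E95K protein and used the same 2 control samples. miR-181a-5p was higher by 0.80 (SE 0.17, interval 0.39 to 1.21), a ratio of 1.74, with an adjusted p = 0.0611 by limma. The adjustment gave the same value, the smallest of this comparison, to 19 of the 142 miRNAs, so it is not particular to miR-181a-5p. miR-181b-5p was higher by 0.43 (SE 0.18, interval 0.01 to 0.85), a ratio of 1.35, with an adjusted p = 0.114 by limma. Again 0 of the 4 members passed after adjustment, beside 0% of all tested, while both tested members were higher at an unadjusted p under 0.05, against 26.8%. Both were higher without overlap, as were 40.8% of the 142. miR-181a-5p ranked 7th of the 142 by its difference and 3rd by its p, while miR-181b-5p ranked 41st by its difference, and the median of all tested was 0.13. Where the 2 arrays with the widest negative controls were left out, the MT group kept replicate 2 only. miR-181a-5p then differed by 0.67 and miR-181b-5p by 0.32, the same values as without MT replicate 1.

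The comparison of WT with MT sets the 2 proteins against each other at a matched dose and time, on different rows of the slide. miR-181a-5p was lower in the WT group by 0.31 (difference -0.31, SE 0.17, interval -0.73 to 0.10), a ratio of 0.804, with an adjusted p = 0.990 by limma. miR-181b-5p differed by -0.04 (SE 0.18, interval -0.46 to 0.38), with an adjusted p = 0.990 by limma. None of the 4 members passed, and 0% of the 142 miRNAs had even an unadjusted p under 0.05. The WT samples of miR-181a-5p lay below the MT samples without overlap, as did those of 17.6% of the miRNAs, and the interval leaves room for a WT level between 0.605 and 1.07 times that of MT. For miR-181b-5p it runs from 0.727 to 1.30 times, so neither interval establishes that the 2 proteins acted alike.

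**Figure D3:**
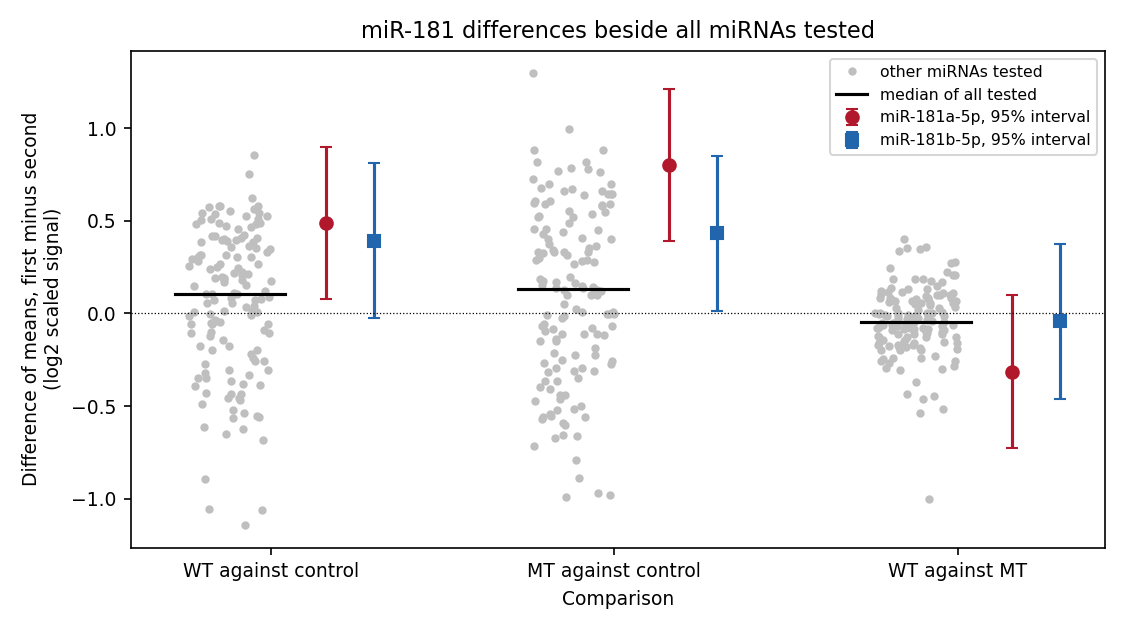
Differences of group means (first minus second, log2 scaled signal) of miR-181a-5p and miR-181b-5p with 95% intervals, beside the other miRNAs tested (grey, 142 tested in all) and the median of all tested (black bar). miR-181a-5p lies near the upper edge in MT against control at 0.80, and no interval belongs to a difference that passed after adjustment.

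Setting the members against each other within a sample removes the scaling, since both were divided by the same percentile. The size of such a difference depends on the probes and has no meaning by itself, but its change between samples does. miR-181a-5p minus miR-181b-5p was 0.03 and 0.21 on the log2 scale in control replicates 1 and 2, 0.27 and 0.17 in the WT group and 0.50 and 0.48 in the MT group. The control and WT samples overlapped, and both MT samples lay above the other 4. The means were 0.12, 0.22 and 0.49. This difference was looked at after the levels were known and was not tested. How many other pairs of miRNAs set the MT samples apart in this way was not counted. Only the MT arrays lay on the left of row 2, so position on the slide and group cannot be told apart here either.

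Within a side of the slide the order of the samples could be read without a difference of side. The WT samples still lay in another row than the MT and control samples. On the left side miR-181a-5p was 5.82 in WT replicate 1 and 6.14 and 5.88 in the MT samples, and on the right it was 5.56 in WT replicate 2 and 5.26 and 5.15 in the control samples. miR-181b-5p was 5.55 in WT replicate 1 on the left, between the MT values of 5.63 and 5.40, and 5.40 in WT replicate 2 on the right, above the control values of 5.23 and 4.94. With the side as a term in limma's fit, miR-181a-5p differed from control by 0.36 in WT (adjusted p = 0.547) and 0.54 in MT (adjusted p = 0.945). In the same limma fit miR-181b-5p differed by 0.32 in WT (adjusted p = 0.626) and 0.28 in MT (adjusted p = 0.945). Only the WT group lay on both sides, so this fit estimated the side from WT replicates 1 and 2 alone. Its WT differences equal those without WT replicate 1, and its MT differences rest on that pair of samples.

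The differences of the 2 members from control depended on the scaling. When the percentile was taken over all mouse probes, detected or not, the median of the 142 miRNAs moved to -0.19 in WT against control and -0.51 in MT against control. miR-181a-5p was then higher than control by 0.13 and 0.09, and miR-181b-5p by 0.03 in WT, whereas in MT it was lower by 0.28 (difference -0.28). With no scaling the medians were -0.32 and -0.50, and miR-181a-5p differed by -0.00368 and 0.14, miR-181b-5p by -0.10 and -0.22. Measured from the median of all tested, miR-181a-5p stood 0.38 above it in WT against control and 0.67 in MT against control in the setting used throughout. Over 5 ways of scaling or background correction these distances were 0.31 to 0.38 and 0.45 to 0.67. For miR-181b-5p they were 0.29 and 0.30, with ranges of 0.21 to 0.29 and 0.19 to 0.30. A shift that moves all miRNAs of an array alike is removed by subtracting the median, by construction, so the narrower ranges are no sign of stability.

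**Figure D4:**
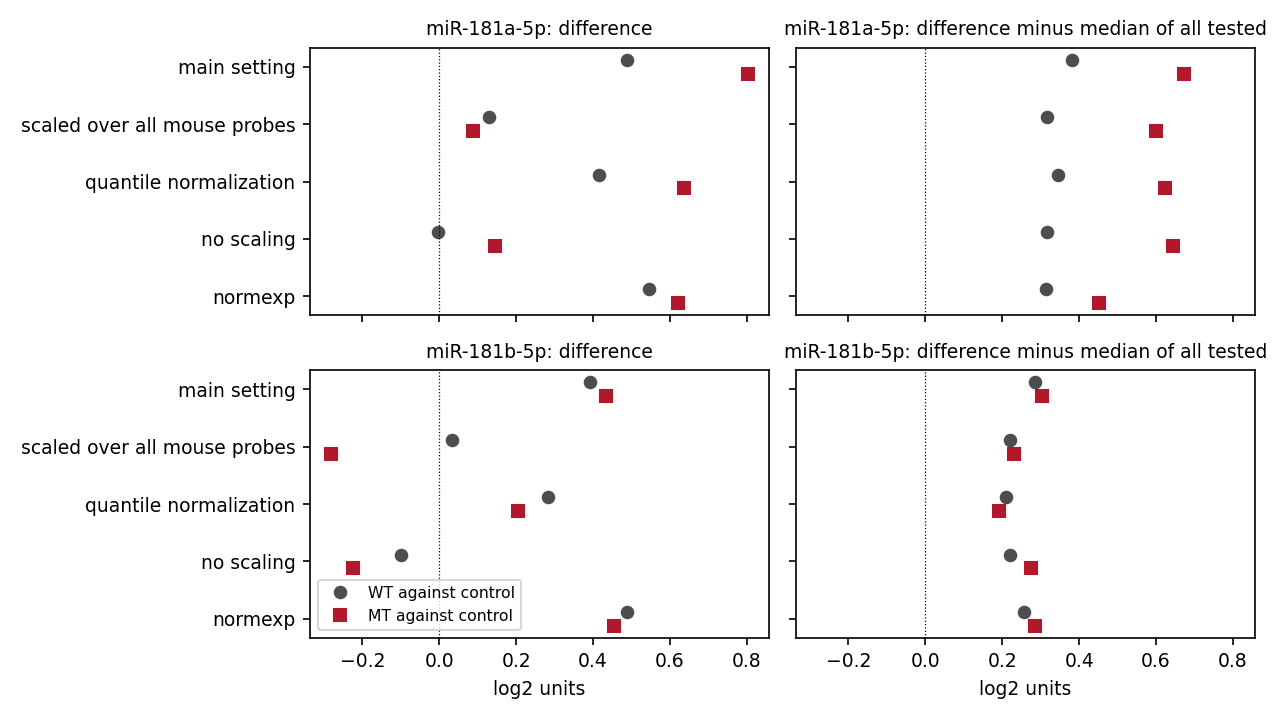
Log2 difference of miR-181a-5p and miR-181b-5p from control under 5 ways of scaling or background correction (left), and the same after subtracting the median of all miRNAs tested (right), for WT (circles) and MT (squares). The differences run from -0.28 to 0.80 and cross 0; the distances from the median run from 0.19 to 0.67, with shifts common to all miRNAs removed by construction.

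The probes of a member differed in how well they could show a change. The second probe of miR-181b-5p was dimmer, with 47 of 80 spots well above background and detection on 4 arrays. Its differences from control were 0.31 in WT and 0.24 in MT, in the same direction as the 0.39 and 0.43 of the brightest probe. For WT against MT the 2 probes gave 0.07 and -0.04, on either side of 0. The second probe of miR-181a-5p was detected on no array, with 8 of 80 spots, and lay at or near the floor, so the differences of miR-181a-5p rest on 1 probe. With the mean of both probes miR-181a-5p was higher than control by 0.27 in WT and 0.42 in MT, which is 0.17 and 0.35 above the median of all tested. Feature Extraction's summary of all spots, the total gene signal, behaved differently for miR-181a-5p. It was 358, 350, 279 and 560 on both arrays of WT replicate 1, MT replicate 1 and control replicate 2, and 36.9 to 52.3 on the other 4 arrays. For miR-181b-5p it was 309 on the array of MT replicate 1 and 38.5 to 62.7 on the other 7. With this summary miR-181a-5p differed from control by -0.09 in WT and -0.11 in MT, below the median of all tested by 0.09 and 0.05 (distances -0.09 and -0.05), and miR-181b-5p differed from control by 1.67 in MT and from MT by -1.36 in WT. The brightest probes showed no such step, at 44.7 to 64.7 and 37.9 to 61.2. The cause was not tested.

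The miRNAs whose level followed each member best over the 6 RNA samples are given as a description, since all levels share the arrays and their scaling. For miR-181a-5p they were miR-199a-5p (Pearson r = 0.997), miR-214-3p (0.984) and miR-34b-3p (0.973). miR-199a-5p and miR-214-3p can be made from a common transcript and are typical of mesenchymal cells. For miR-181b-5p they were miR-25-3p (0.986), miR-199b-5p (0.973) and miR-342-3p (0.967). The members themselves gave r = 0.915 with each other, and neither was among the 3 nearest of the other. miR-199a-5p was higher than control by 0.39 in WT and 0.59 in MT, and miR-214-3p by 0.49 and 0.78, beside 0.49 and 0.80 for miR-181a-5p. Their limma adjusted p-values were 0.167 and 0.0611 for miR-199a-5p and 0.139 and 0.0611 for miR-214-3p. Other mesenchymal miRNAs went the other way. Of the 11 tested, only miR-199a-5p and miR-214-3p were higher at an unadjusted p under 0.05 in WT against control, beside 17.6% of all tested. At that p miR-21-5p and miR-152-3p were lower (-0.89 and -0.44), beside 10.6% of all tested. The other arm of miR-199a, miR-199a-3p, gave -0.22.

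Beside the miR-181 family, 23 miRNAs studied in bone and cartilage were on the array, of which 11 were detected and tested. The share of detected members was thus 11 of 23, against 2 of 4 in the family. Of all 611 mouse miRNAs on the array, 449 were detected on no array. None of the 11 passed after adjustment in any comparison, and in each comparison with control 1 was higher and 1 lower at an unadjusted p under 0.05. Over all tested, 17.6% were higher and 10.6% lower at that p in WT against control, and 26.8% and 12.7% in MT against control. The higher one was miR-455-3p, a cartilage miRNA, with differences of 0.62 in WT and 0.78 in MT, and the lower one miR-29b-3p, which targets collagen mRNAs, with -1.06 and -0.89. The median difference of the list was 0.10 in WT against control and -0.01 in MT against control, beside 0.11 and 0.13 over all tested. Of the 11 mesenchymal miRNAs tested, 0 passed after adjustment. At an unadjusted p under 0.05, 2 were higher and 2 lower in WT against control. In MT against control 3 were higher and 1 lower, beside the same shares over all tested. The median of this list was -0.02 in both. In WT against control that median was the value of miR-22-5p, detected on 2 arrays and at the floor in the WT group. In WT against MT no member of either list had an unadjusted p under 0.05, and the medians were -0.01 for the bone and cartilage list and -0.10 for the mesenchymal list.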

How the data were processed

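Total RNA of C3H10T1/2 cells was measured by Agilent on 1-colour (Cy3) miRNA arrays. For every array the authors deposited scanner output, in which each spot has a background-subtracted intensity, and a series table that holds the same intensity values to within 0.005 signal units, with no normalization between arrays. Feature Extraction is given as version 9.1 in the submitters' processing notes and 10.7.1.1 in the file header, which names build mm9. Any normalization of these arrays by the authors was not given in the sources used here.

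Control spots and outlier spots were left out, and the other spots were averaged for each probe. Signals were divided by the array's 75th percentile over the 174 probes detected on all 8 arrays and floored at 3.97 (log2), and the brightest probe of each miRNA was used. The 2 arrays of each WT RNA sample were averaged. Tests covered the 142 miRNAs that every array of 1 or more groups detected, by limma 3.58.1 (R 4.3.3) in a joint fit (3 groups, two-sided, Benjamini-Hochberg, threshold 0.05), without a replicate block. Replicate numbers were not treated as pairing the samples. The fit was tested on simulated data. The number of arrays limits the precision.

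The text names the 4 members, the other miR-181 arms, the 3 miRNAs most like each tested member, and list miRNAs with an unadjusted p under 0.05 or that define a cell type. Members, lists and this rule were chosen with earlier results of these data known. RefSeq sequences matched 476 of the 611 array names. Alternatives covered scaling, quantile normalization, the signal column, normexp with an offset of 50, the floor, detection filters, probe and outlier handling, the technical arrays, a replicate block, the groups in the fit, an intensity trend, the side of the slide and leaving out each RNA sample. Running without scaling, without the arrays of widest negative controls, and with a crossed pairing were added after the values were seen. Figures were drawn with matplotlib version 3.10.9.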

Additional observations from a re-analysis of the deposited data

How the results depend on the processing

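No member passed in WT against MT under any of the 24 alternatives. In WT against control the count of members called rose from 0 to 2 with normexp (adjusted p = 0.0293 for miR-181a-5p and 0.0453 for miR-181b-5p, with 22 of 142 miRNAs called) and was 0 otherwise. In MT against control it was 2 with normexp (0.00624 and 0.0420, with 40 of 142 called), and 1, miR-181a-5p, with all arrays fitted and RNA sample as random block (0.0469, with 11 of 142 called) and with only miRNAs detected on all 8 arrays (0.0324, with 29 of 103 called). Leaving out 1 RNA sample gave 0 to 1 calls there, the 1 being miR-181a-5p without MT replicate 2 (difference 0.93, adjusted p = 0.0373, with 18 of 142 called), and 0 in the other comparisons. The alternatives gave adjusted p-values of 0.00624 to 0.986 for miR-181a-5p in that comparison. With normexp 80.3% of the 142 miRNAs were higher in WT against control and 73.2% in MT against control. Measured from the median of all tested, miR-181a-5p then stood at 0.31 and 0.45, and miR-181b-5p at 0.26 and 0.29. These distances were no larger than the 0.38 and 0.67, and 0.29 and 0.30, of the setting used throughout.

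With the replicate block the calls were 0 in all 3 comparisons, and the replicate block changed no call. Deviations of same-numbered samples correlated at 0.02 between WT and MT, at 0.39 between WT and control, but at -0.46 between MT and control. A crossed pairing of MT and control, chosen after seeing the data, gave 1 call among the members and 58 among the 142 miRNAs.

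Directions turned as follows. With the total gene signal miR-181a-5p gave -0.11 in MT against control, -0.0908 in WT against control and 0.0211 in WT against MT. Scaling over all mouse probes gave 0.0430 for miR-181a-5p in WT against MT, and -0.28 in MT against control and 0.32 in WT against MT for miR-181b-5p. No scaling, chosen after seeing the data, gave -0.00368 for miR-181a-5p in WT against control, and for miR-181b-5p -0.10 and -0.22 in WT and MT against control and 0.12 in WT against MT. The difference of miR-181b-5p in WT against MT, -0.04 in the setting used throughout, was also 0.0128 with the mean of all probes, 0.0335 with normexp, 0.0776 with quantile normalization, 0.0062 with the second WT arrays, 0.0349 with the side of the slide, 0.0811 without the arrays of widest negative controls, and -0.16 to 0.0745 when 1 RNA sample was left out. Apart from what scaling itself shifts, the cause was not tested.

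Leaving out 1 RNA sample moved miR-181a-5p between 0.36 and 0.62 in WT against control and between 0.67 and 0.93 in MT against control. In WT against MT it moved between -0.44 (without WT replicate 1 or MT replicate 2) and -0.18 (without WT replicate 2), and was -0.19 without MT replicate 1. For miR-181b-5p the ranges were 0.25 to 0.54 and 0.29 to 0.58, with the lowest values without control replicate 2, which lowered both by over 1.5 times. With 2 samples a group, a sample left alone was assumed to vary like the others. Signal over background limits miR-181c-5p and miR-181d-5p, which gave no tested value in any setting.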
